A study of Mus musculus with 16 samples.

Results

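A set of 10 genes of selective autophagy was followed in mouse retinal microglia: 4 cargo receptors (Sqstm1, Nbr1, Optn and Tax1bp1), 5 genes of the ATG8 family (Map1lc3a, Map1lc3b, Gabarap, Gabarapl1 and Gabarapl2) and Becn1. They were taken by symbol from a table of 54532 genes, and all 10 were found and had enough reads to be tested. The study compared microglia of the oxygen-induced retinopathy model (OIR) with microglia of healthy retinas (nonOIR). In this model newborn mice breathe high oxygen and then return to room air, after which the retina is hypoxic and abnormal vessels grow. The OIR group held 8 libraries and the nonOIR group 8, all from Cx3cr1CreERT2:Rosa26-tdTomato mice at postnatal day 17. All mice of both groups, controls included, received 5 µl of tamoxifen at 21 mg/ml under the skin at postnatal day 1 to switch the reporter on. The Cx3cr1 promoter drives the recombinase, and this promoter is also active in macrophages at tissue borders and in monocytes, so the reporter alone does not single out microglia. Cells were sorted as CD45low, CD11b+ and Tom+, without Ly6C or Ly6G. In each group 5 libraries (replicates 1 to 5) carried the code of lane 1 and 3 libraries (replicates 6 to 8) that of lane 2, and whether that code is also a batch of animals is not stated. Nor do the labels state that each library is a separate animal. The p-values therefore describe the spread among these libraries, part of which may be technical.

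Selective autophagy delivers chosen cargo to the lysosome. A receptor binds ubiquitin-tagged cargo and, with a short motif, an ATG8 protein that has been coupled to lipid in the growing membrane; the membrane closes around both and fuses with a lysosome, where receptor and cargo are broken down. ATG8 proteins fall into an LC3 branch (Map1lc3a, Map1lc3b) and a GABARAP branch (Gabarap, Gabarapl1, Gabarapl2), while Becn1 belongs to the lipid kinase complex that marks the site where the membrane forms. In microglia the same machinery also helps to clear engulfed material. Messenger RNA levels do not measure the flow of cargo through this pathway, because receptor and ATG8 proteins are themselves consumed by it.

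Sqstm1 and Gabarap were higher in OIR, and none of the 10 genes was lower. Sqstm1 rose 1.38-fold and Gabarap 1.28-fold, and Becn1 was 1.28-fold higher but just missed the threshold. The other 7 genes did not pass the test, among them both LC3 genes and 3 of the 4 receptors. Thus 2 of 10 genes (20%) changed, both upward, against 10.9% of the 12496 genes tested in either direction, 6.39% upward and 4.56% downward. At an unadjusted p under 0.05 it was 3 of 10, with Becn1 added, against 25% of all genes. The median log2 fold change of the 10 genes was 0.09, against -0.03 over all genes tested, and 5 of the 10 values were positive. The test was edgeR's quasi-likelihood test, adjusted by the method of Benjamini and Hochberg over all 12496 genes with a threshold of 0.05, and levels are in CPM, the counts of a gene scaled to a common library total, after TMM scaling, which corrects for differences in composition.

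Library totals lay between 20.8 M and 30.0 M counts in OIR and between 13.6 M and 27.97 M counts in nonOIR. The sort could be checked on its markers: the summed level of 7 microglial genes (Cx3cr1, P2ry12, Tmem119, Csf1r, Itgam, Ptprc and Sall1) was 14910 to 30390 CPM in OIR and 27040 to 37900 CPM in nonOIR. Of the 7, 2 fell in OIR (Tmem119 and P2ry12), against 10.9% of all genes passing in either direction. With lane as a term 5 of 7 fell (Cx3cr1, Sall1 and Csf1r added), against 17.3% of all genes. The 6 border macrophage markers summed to 8.68 to 388 CPM in OIR and 13.5 to 211 CPM in nonOIR, and none of the 6 passed the test (1 at an unadjusted p under 0.05, 0 by DESeq2 and 0 by limma-voom). Over all 12496 genes 1859 passed by DESeq2 and 1301 by limma-voom. Within lane 2, 4 of the 6 were higher in OIR (Cbr2, Mrc1, F13a1 and Lyve1, edgeR adjusted p 0.0296 to 0.0499), against 15.4% of all genes passing in that lane. Within lane 1 none passed, against 3.33% of all genes. Their highest sums, 386, 341 and 388 CPM, were in the 3 lane 2 OIR libraries, which also had the lowest microglial sums (14910, 18700 and 16300 CPM). Microglial sums were lower in lane 2 among nonOIR libraries too, at 27040 to 28160 CPM against 33520 to 37900 CPM in lane 1. Erythrocyte markers summed to 1.87 to 292 CPM in OIR and 0 to 28.6 CPM in nonOIR, and both tested ones rose (2 by DESeq2, 0 by limma-voom). Neuronal markers summed to 6.82 to 27.1 CPM in OIR and 21.4 to 53.2 CPM in nonOIR, and 2 of 7 tested were lower in OIR (Nefl and Snap25). Rod markers summed to 36.8 to 386 CPM in OIR and 61.3 to 479 CPM in nonOIR, with none of 8 passing (0 at an unadjusted p under 0.05 and 0 by DESeq2). Glial markers summed to 289 to 384 CPM in OIR and 338 to 405 CPM in nonOIR (Vim rose, Glul fell), and endothelial markers to 8.67 to 37.6 CPM in OIR and 21.1 to 42.2 CPM in nonOIR. Most of the glial sum was Glul (means of 226 CPM in OIR and 284 CPM in nonOIR). Rlbp1, Dkk3, Aqp4 and Gfap averaged at most 2.52 CPM in OIR and 6.39 CPM in nonOIR. The largest endothelial part was Pecam1 (18.1 CPM in OIR, 27.8 CPM in nonOIR), and Cldn5 averaged 0.0421 CPM in OIR and 0.0315 CPM in nonOIR. Monocyte markers reached at most 16.0 CPM in OIR and 7.97 CPM in nonOIR, with Ly6c2 at 0 everywhere. Of the 2 tested, none passed by edgeR or limma-voom and 1 was higher in OIR by DESeq2 (Plac8, adjusted p = 0.00963). Neutrophil markers reached at most 0.961 CPM in OIR and 0.217 CPM in nonOIR, with Ly6g, Retnlg and Ngp at 0. In bulk libraries, fewer cells of a type and less RNA per cell cannot be told apart.

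**Figure D1:**
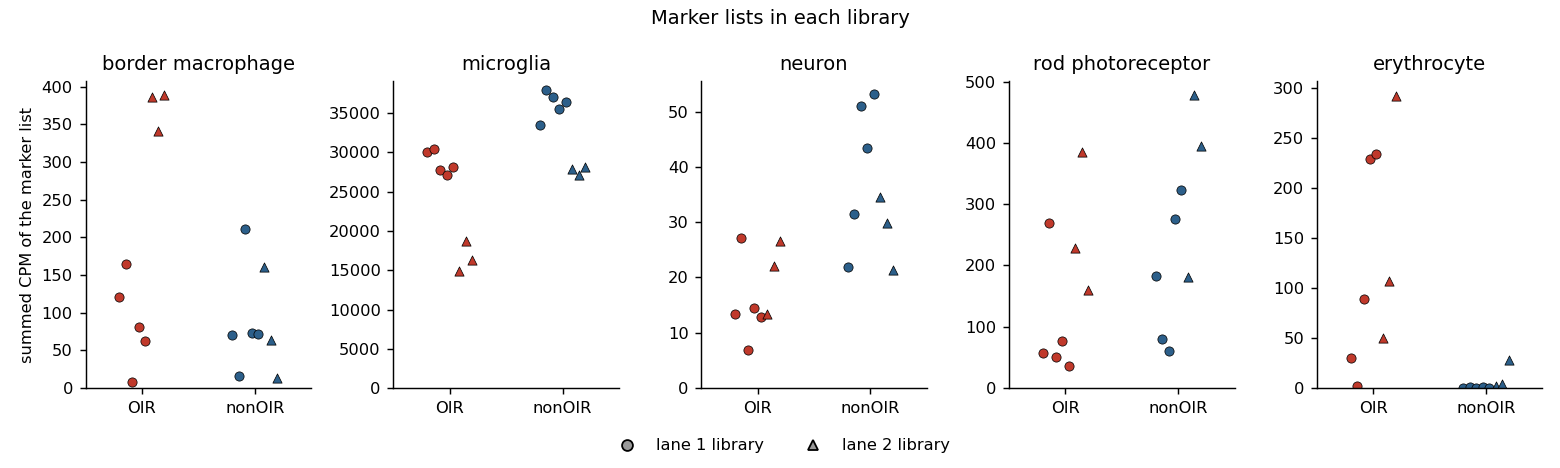
Summed CPM of 5 marker lists in each library (vertical axes, each from 0), with OIR left of nonOIR, circles for lane 1 and triangles for lane 2. The 3 lane 2 OIR libraries had the highest border macrophage sums (341 to 388 CPM) and the lowest microglial sums (14910 to 18700 CPM).

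Sqstm1 encodes p62, a receptor that binds ubiquitin chains and clusters them into bodies, and that also holds the repressor of the antioxidant factor encoded by Nfe2l2. The gene lies on the minus strand at chr11:50199366-50210827 (mm10, GENCODE M21; ENSMUSG00000015837) and has 8 merged exons. The stretch before its RefSeq start is shown because Sqstm1 had the smallest p-value of the 10 genes, and that of Gabarapl2 because it carries the same motif but did not pass the test. Both are from RefSeq (GRCm38.p6) and are written 5′ to 3′ on the strand of the gene, with each GC box (GGGCGG on either strand, a motif bound by the Sp family) in capitals. The Sqstm1 stretch is chr11:50210828-50211070 on the minus strand, 243 bases, after 7 bases that lie in an annotated exon were left off, and the Gabarapl2 stretch is chr8:111940453-111940702 on the plus strand, 250 bases.
Sqstm1: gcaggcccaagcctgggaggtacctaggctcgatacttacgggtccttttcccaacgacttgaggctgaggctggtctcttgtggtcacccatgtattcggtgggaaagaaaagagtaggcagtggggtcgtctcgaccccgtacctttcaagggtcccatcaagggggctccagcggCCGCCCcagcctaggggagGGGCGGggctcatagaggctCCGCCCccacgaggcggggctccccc
Gabarapl2: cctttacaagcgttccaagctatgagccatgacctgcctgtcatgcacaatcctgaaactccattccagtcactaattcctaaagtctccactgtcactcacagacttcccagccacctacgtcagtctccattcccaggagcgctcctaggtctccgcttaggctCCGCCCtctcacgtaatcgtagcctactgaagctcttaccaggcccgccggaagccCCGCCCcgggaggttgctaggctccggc
The Sqstm1 boxes began 72, 53 and 33 bases before the start, and the Gabarapl2 boxes 84 and 28 bases before it. A GC box was present in 32.74% of 32851 promoter windows of the same length. No E-box (CACGTG, in 6.02% of windows), antioxidant response core (TGACNNNGC, 10.16%), AP-1 motif (TGANTCA, 6.75%) or TATA box (TATAAA, 12.37%) was found in either window, each searched on both strands. The table held windows for 8 of the 10 genes, all but Map1lc3a and Becn1. GC boxes were also present in the windows of Optn (1), Map1lc3b (1) and Gabarapl1 (2). So 5 of the 8 genes, and 5 of their 10 windows, held at least 1, where the share of 32.74% counts windows. The Map1lc3b box and the Gabarapl1 box 10 bases before the RefSeq start lie inside the annotated genes. The Gabarap window (chr11:69991120-69991369) held none of the 5 motifs. Most of it lies inside the annotated gene, which starts at 69991143, so the stretch before that start was mostly not searched. In 1 of the Tax1bp1 windows an antioxidant response core began 205 bases before the RefSeq start. That window (chr6:52713915-52714164) lies wholly inside the annotated gene, which starts at 52713729. A match describes letters and not binding.

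Sqstm1 had 459.5, 388.6, 424.2, 528.8 and 496.4 CPM in the lane 1 OIR libraries, against 336, 369.3, 385, 416.1 and 448.7 CPM in the lane 1 nonOIR libraries. In lane 2 it had 537.2, 522.7 and 583.8 CPM in OIR, against 312, 284.2 and 314.7 CPM in nonOIR. All 8 OIR libraries lay above the nonOIR median and 6 above every nonOIR library, so the groups overlapped only through OIR replicates 2 and 3. The means were 493 ± 64.5 CPM in OIR and 358 ± 56.5 CPM in nonOIR (SD, n = 8 each), with a log2 fold change of 0.46 (SE 0.10, 95% interval 0.24 to 0.67, edgeR adjusted p = 0.00759). The authors' deposited table gives 0.46 with an adjusted p of 0.00067 for the same contrast.

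The difference in Sqstm1 was larger in lane 2. Within lane 2 the log2 fold change was 0.90 (edgeR adjusted p = 0.000381), and within lane 1 it was 0.24 (edgeR adjusted p = 0.231). The change in lane 2 minus that in lane 1 was 0.62 (SE 0.14, 95% interval 0.31 to 0.92, unadjusted p = 0.00047), which did not pass after adjustment over all genes (edgeR adjusted p = 0.0608) but did when libraries were scaled by their totals alone (adjusted p = 0.0315). Under TMM scaling none of the 10 genes passed this edgeR test of the difference, against 0.496% of all genes. At an unadjusted p under 0.05 it was 2 of 10 (Sqstm1 and Becn1), against 13.1% of all genes. In lane 2 the 3 OIR libraries were among the 4 highest of all 16 and the 3 nonOIR libraries were the lowest. These 3 OIR libraries had the highest border macrophage and lowest microglial sums, and the part of these in the difference was not tested. Annotated exons of Sqstm1 and of Mrnip, on the opposite strand, share 580 bases, and the kit keeps no strand information. Mrnip itself had 2.07 ± 0.509 CPM in OIR and 2.35 ± 1.02 CPM in nonOIR (SD, n = 8 each).

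**Figure D2:**
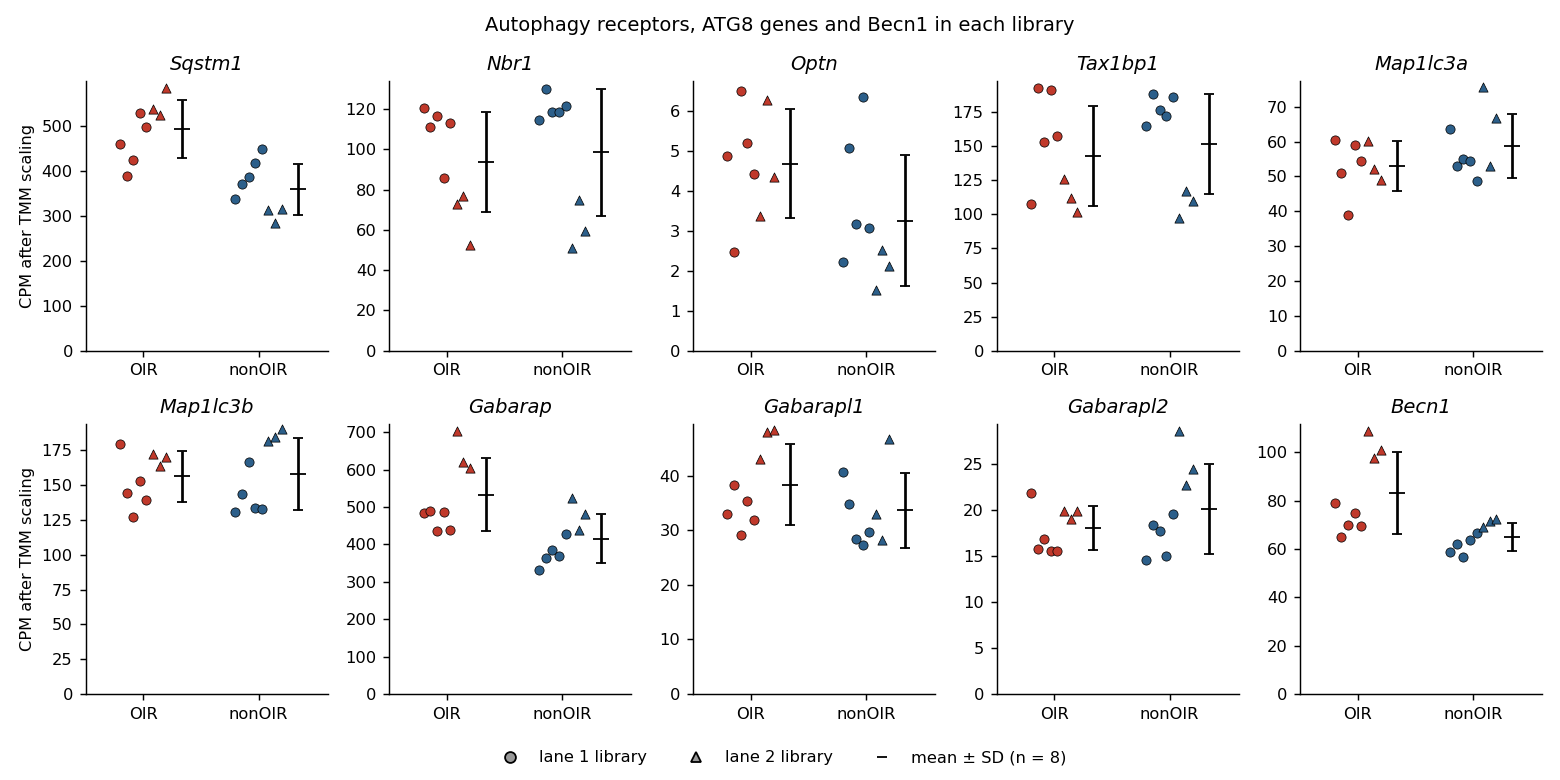
CPM after TMM scaling of each of the 10 genes in each library (vertical axes, each from 0), with OIR left of nonOIR, circles for lane 1, triangles for lane 2, and bars for the mean and SD of 8 libraries. Sqstm1 (493 CPM in OIR, 358 in nonOIR) and Gabarap (533 in OIR, 415 in nonOIR) stand higher in OIR, and Nbr1 and Tax1bp1 differ by lane in both groups.

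The other 3 receptors did not pass the test. Nbr1, a relative of p62 that also binds ubiquitin and joins it in the same bodies, had 52.7, 98.3 and 121 CPM (lowest, median and highest) in OIR and 51.1, 116 and 130 CPM in nonOIR. Its log2 fold change was -0.07 (95% interval -0.51 to 0.36, edgeR adjusted p = 0.875). Tax1bp1, a receptor that also restrains inflammatory signalling, had 102, 139 and 193 CPM in OIR and 97.6, 168 and 188 CPM in nonOIR, with a log2 fold change of -0.09 (95% interval -0.44 to 0.27, edgeR adjusted p = 0.809). For both genes the low values were mostly the lane 2 libraries of both groups: with the group in the fit, lane 2 over lane 1 had a log2 difference of -0.83 for Nbr1 (edgeR adjusted p = 1.54e-05) and -0.61 for Tax1bp1 (edgeR adjusted p = 0.000321). Within lane 2 the OIR over nonOIR values of these genes were 0.17 and 0.11, of the opposite sign, and neither passed the test.

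Optn, the receptor optineurin, known for mitochondria and for its link to glaucoma, was the least abundant of the 10, with 30 to 200 counts per library. It had 2.47, 4.65 and 6.50 CPM in OIR (lowest, median and highest) and 1.51, 2.79 and 6.35 CPM in nonOIR. Of the 8 OIR libraries 7 lay above the nonOIR median, but the groups overlapped over almost their whole range. The log2 fold change of 0.52 was larger than that of Sqstm1, but its error was larger too (SE 0.30, 95% interval -0.11 to 1.16, edgeR adjusted p = 0.304). In lane 2 the 3 OIR libraries (3.37, 6.28 and 4.35 CPM) were all above the 3 nonOIR libraries (1.51, 2.52 and 2.13 CPM), with a log2 fold change of 1.22 (edgeR adjusted p = 0.102).

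Gabarap, on the plus strand at chr11:69991143-69994951 (mm10, GENCODE M21; ENSMUSG00000018567), encodes an ATG8 protein of the branch that acts mainly in later steps of autophagosome formation and in fusion. It had 484.2, 490.4, 436.3, 486.1 and 439.7 CPM in the lane 1 OIR libraries, against 330.7, 363.3, 386.1, 370 and 428.5 CPM in the lane 1 nonOIR libraries. In lane 2 it had 703.1, 621.4 and 605.3 CPM in OIR, against 523.7, 438.5 and 481.7 CPM in nonOIR. Every OIR library was above every nonOIR library of its own lane, and the overlap over all 16 libraries came from lane 2 lying higher in both groups (log2 0.41 for lane 2 over lane 1, edgeR adjusted p = 9.89e-05). The means were 533 ± 97.4 CPM in OIR and 415 ± 65.1 CPM in nonOIR (SD, n = 8 each), with a log2 fold change of 0.36 (SE 0.11, 95% interval 0.12 to 0.60, edgeR adjusted p = 0.0493). Gabarap passed the test within lane 1 (0.32, edgeR adjusted p = 0.0376), within lane 2 (0.46, edgeR adjusted p = 0.0142) and with lane as a term (0.35, edgeR adjusted p = 0.000623). In lane 1 the border macrophage sums ranged from 8.68 to 164 CPM in OIR and from 15.7 to 211 CPM in nonOIR, overlapping, while in lane 2 they were 341 to 388 CPM in OIR and 13.5 to 161 CPM in nonOIR. The lane 1 microglial sums were separate, at 27070 to 30390 CPM in OIR and 33520 to 37900 CPM in nonOIR, as were the erythrocyte sums, at 1.87 to 234 CPM in OIR and 0 to 1.51 CPM in nonOIR. The part of border macrophage, microglial or erythrocyte signal in the Gabarap difference was not tested in either lane. Without lane in the fit the call was close to the threshold and was lost with upper-quartile scaling (adjusted p = 0.0952), without a filter on low counts (0.0565), with limma-voom (0.0559) and in 11 of 16 fits that left out 1 library: OIR replicate 2, 4, 6, 7 or 8, or nonOIR replicate 1, 2, 3, 4, 5 or 7 (adjusted p 0.0269 to 0.0957 over all 16). No 50-base stretch of its transcripts occurs in another annotated gene.

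The other ATG8 genes did not pass. Gabarapl1, a close relative of Gabarap, had 29.1, 36.9 and 48.3 CPM in OIR (lowest, median and highest) and 27.3, 31.3 and 46.6 CPM in nonOIR, with a log2 fold change of 0.19 (95% interval -0.10 to 0.49, edgeR adjusted p = 0.432). Gabarapl2, known also as GATE-16 for its role in Golgi transport, had 15.5, 17.9 and 21.8 CPM in OIR and 14.5, 18.9 and 28.6 CPM in nonOIR, with a log2 fold change of -0.16 (95% interval -0.47 to 0.15, edgeR adjusted p = 0.560). In lane 2 all 3 OIR libraries of Gabarapl2 (19.8, 19.0 and 19.8 CPM) were below the 3 nonOIR libraries (28.6, 22.7 and 24.5 CPM), but the difference within that lane did not pass (log2 -0.32, edgeR adjusted p = 0.28). The 2 genes thus had estimates of opposite sign, neither past the test. Counts of Gabarapl2 and Map1lc3b are less certain, because 12.2% and 6.01% of their 50-base stretches also occur in other genes, processed copies among them. Gabarapl1 shares 570 bases of exon with 1700101I11Rik on the opposite strand, which averaged 0.162 CPM in OIR and 0.0105 CPM in nonOIR.

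In the LC3 branch, Map1lc3b, the usual marker of autophagosomes, had 127, 158 and 179.9 CPM in OIR (lowest, median and highest) and 131, 155 and 191 CPM in nonOIR. Its log2 fold change was -0.02 (95% interval -0.23 to 0.20, edgeR adjusted p = 0.949), and the sign turned to 0.05 with scaling by library totals and to 0.08 within lane 1. Map1lc3a had 38.8, 53.2 and 60.3 CPM in OIR and 48.5, 54.6 and 75.5 CPM in nonOIR, with a log2 fold change of -0.15 (95% interval -0.38 to 0.09, edgeR adjusted p = 0.452). The intervals leave room for a change of either sign in both genes, at most 0.23 down or 0.20 up for Map1lc3b.

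Becn1 encodes Beclin 1, the scaffold of the class III lipid kinase complex. It had 78.8, 65.0, 69.8, 74.8 and 69.4 CPM in the lane 1 OIR libraries, against 58.6, 62.2, 56.7, 63.8 and 66.4 CPM in the lane 1 nonOIR libraries. In lane 2 it had 109, 97.6 and 101 CPM in OIR, against 68.9, 71.7 and 72.4 CPM in nonOIR. The 3 lane 2 OIR libraries, those with the highest border macrophage sums, were the highest of all 16, and the part of that signal in the difference was not tested. In lane 1 OIR replicate 2 lay within the nonOIR range. The means were 83.2 ± 16.8 CPM in OIR and 65.1 ± 5.80 CPM in nonOIR (SD, n = 8 each), with a log2 fold change of 0.35 (SE 0.11, 95% interval 0.12 to 0.59), an unadjusted p of 0.00561 and an edgeR adjusted p of 0.0509. It passed within lane 2 (0.58, edgeR adjusted p = 0.00927) and not within lane 1 (0.22, edgeR adjusted p = 0.224), and the difference between lanes was 0.31 (unadjusted p = 0.0281, edgeR adjusted p = 0.300). It also passed with lane as a term (0.33, edgeR adjusted p = 0.00345), with scaling by library totals (adjusted p = 0.0352), with DESeq2 (adjusted p = 0.0271) and without OIR replicate 2, 3 or 5, and the authors' deposited table gives 0.35 with an adjusted p of 0.0243. Becn1 shares 3104 exon bases with Cntd1 on the opposite strand, and 36.8% of its 50-base stretches occur in another gene. Cntd1 averaged 0.190 CPM in OIR and was at 0 in all 8 nonOIR libraries.

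**Figure D3:**
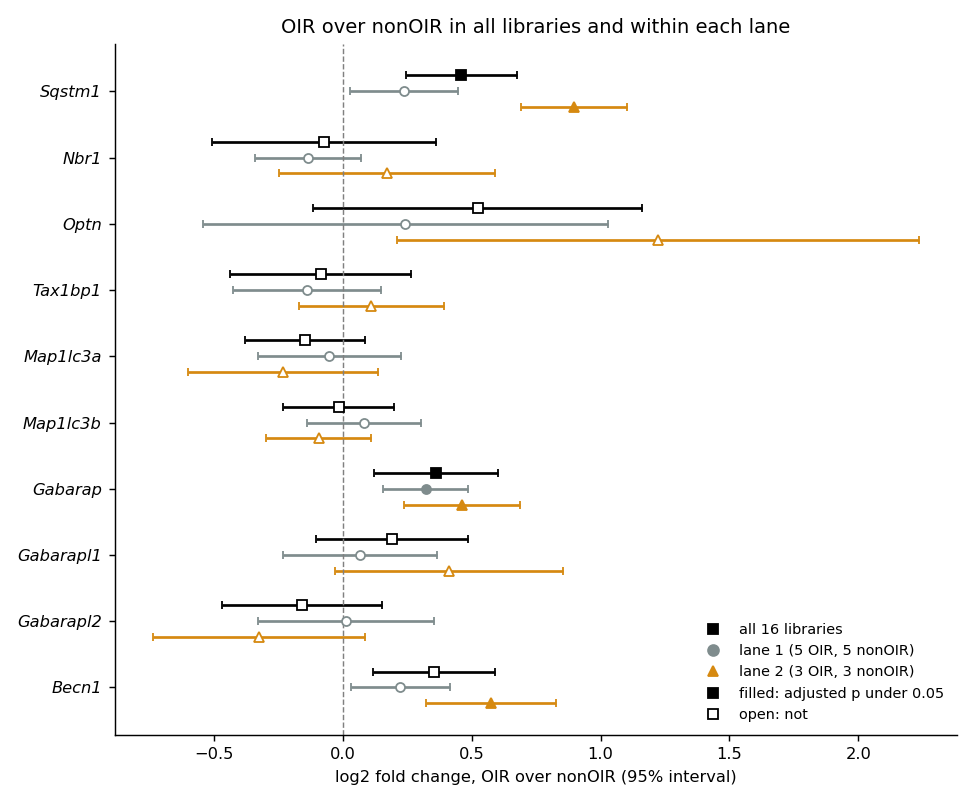
Log2 fold change of OIR over nonOIR with its 95% interval (horizontal axis) for each of the 10 genes, in all 16 libraries (squares), lane 1 (circles) and lane 2 (triangles), filled where the edgeR adjusted p is under 0.05. Gabarap passes in all 3 fits (0.36, 0.32 and 0.46), while Sqstm1 passes over all libraries (0.46) and in lane 2 (0.90) but not in lane 1 (0.24).

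Within lane 1, 1 of 10 genes passed (Gabarap), against 3.33% of the genes tested there, and within lane 2 it was 3 of 10 (Sqstm1, Gabarap and Becn1), against 15.4%. With lane as a term the same 3 genes passed, against 17.3% of all genes. No gene of the 10 had groups without overlap over all 16 libraries, which held for 2.02% of genes tested. In lane 1 the groups were separate for 1 of 10 (Gabarap), against 5.59%, and in lane 2 for 6 of 10, against 37.1%: Sqstm1, Optn, Gabarap and Becn1 higher in OIR, Map1lc3b and Gabarapl2 lower. Between lane 2 and lane 1, with the group in the fit, 6 of 10 genes differed, against 24.8% of all genes. Gabarap, Becn1, Gabarapl2 (0.38) and Map1lc3b (0.29) were higher in lane 2, Nbr1 and Tax1bp1 were lower, and Sqstm1 had a log2 difference of -0.05 (edgeR adjusted p = 0.796). This contrast of lanes was added after the data had been seen.

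Levels per length, in CPM per kb of merged exons, spanned a wide range. Gabarap led with 289 ± 52.8 in OIR and 225 ± 35.3 in nonOIR, followed by Sqstm1 with 147 ± 19.2 in OIR and 107 ± 16.9 in nonOIR (SD, n = 8 each). Map1lc3a (44.9 in OIR, 49.7 in nonOIR) stood above Map1lc3b (20.8 in OIR, 21.0 in nonOIR) only after division by length. Its CPM was lower (53.1 in OIR and 58.7 in nonOIR, against 156 and 158), and its annotated exons are shorter (1181 against 7517 bases). In the basic annotation Map1lc3b has 5182 bases, and which annotated bases the transcripts here held was not measured. From Gabarap down to Map1lc3b the ranges of neighbours were separate within each group. Then came Gabarapl1 (19.1 in OIR, 16.7 in nonOIR), Tax1bp1 (14.3 in OIR, 15.2 in nonOIR), Nbr1 (13.6 in OIR, 14.3 in nonOIR), Becn1 (11.8 in OIR, 9.21 in nonOIR) and Gabarapl2 (7.75 in OIR, 8.64 in nonOIR), and from Map1lc3b to Gabarapl2 the ranges of neighbours overlapped. Optn was last with 1.247 in OIR and 0.867 in nonOIR, below every library of Gabarapl2. With the shorter basic annotation, which moves Tax1bp1 to rank 4, the first 3 and last 3 places were the same.

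**Figure D4:**
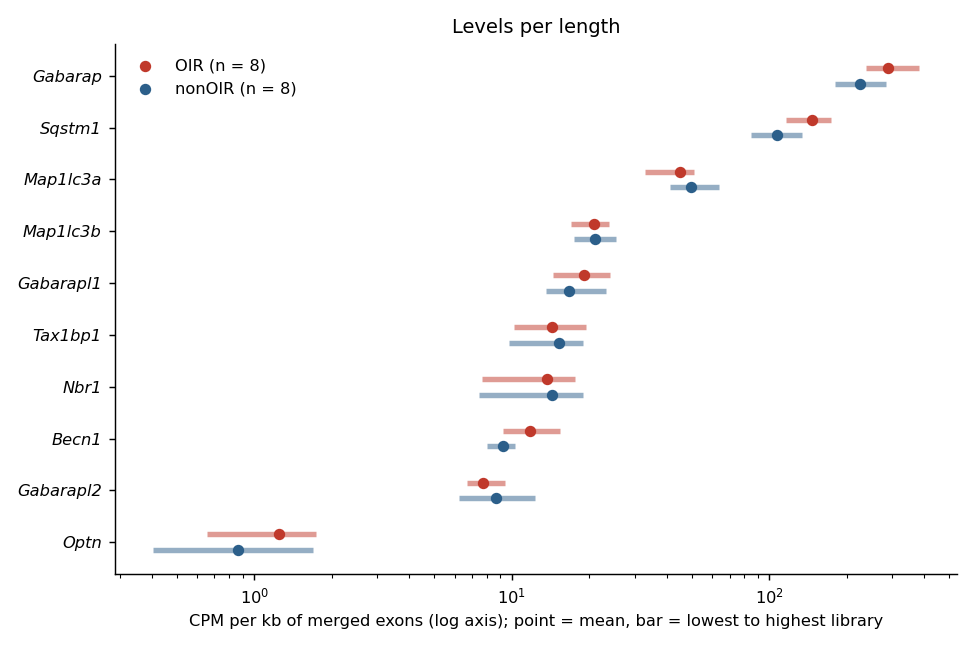
CPM per kb of merged exons on a log axis for the 10 genes in order of their level, OIR above nonOIR, with points for the mean and bars from the lowest to the highest of 8 libraries. Gabarap (289 in OIR, 225 in nonOIR) and Sqstm1 (147 in OIR, 107 in nonOIR) lie above the rest, and Optn lies lowest.

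Of the summed level per length of the 5 ATG8 genes, Gabarap made up 75.5 ± 2.32% in OIR and 69.99 ± 2.66% in nonOIR (SD, n = 8 each). Its share ran between 72.3% and 78.6% in OIR and between 64.8% and 73.9% in nonOIR, so the groups overlapped slightly. Map1lc3a made up 11.9% in OIR and 15.5% in nonOIR, Map1lc3b 5.50% in OIR and 6.55% in nonOIR, Gabarapl1 4.99% in OIR and 5.25% in nonOIR, and Gabarapl2 2.05% in OIR and 2.66% in nonOIR. The shares depend on the exon lengths used, and the change of one ATG8 gene was not tested against that of another.

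The other steps of the pathway were read from 7 lists holding 73 further genes, all of them tested. Of these 73, 2 rose and 4 fell (8.22%), with a median log2 fold change of -0.05, beside 10.9% and -0.03 over all genes. By DESeq2 9 of the 73 passed, against 1859 of the 12496 genes tested, and by limma-voom 5, against 1301. None of the 5 genes of the ULK complex, which starts the process, passed (1 at an unadjusted p under 0.05, 1 by DESeq2), and their median was -0.26. Its lowest p belonged to Atg101, with 38.5 ± 4.49 CPM in OIR and 48.6 ± 7.72 CPM in nonOIR (SD, n = 8 each; log2 -0.34, edgeR adjusted p = 0.0528), which passed with lane as a term (adjusted p = 0.0225). None of 7 partners of Becn1 in the lipid kinase complexes passed (2 at an unadjusted p under 0.05, 0 by DESeq2 and limma-voom; median -0.16). Among them Atg14, which directs the complex to the growing membrane, had 38.0 ± 13.0 CPM in OIR and 51.2 ± 7.05 CPM in nonOIR (log2 -0.43, edgeR adjusted p = 0.0980). Atg14 passed in 1 of 16 fits that left out 1 library, the fit without OIR replicate 1, its highest OIR value (edgeR adjusted p = 0.00331).

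For membrane supply, 0 of 9 passed (2 at an unadjusted p under 0.05, 0 by DESeq2; median -0.05), although Vmp1 did with lane as a term (log2 -0.30, adjusted p = 0.0125), the lowest p being that of Tmem41b, a lipid scramblase, at 21.7 CPM in OIR and 26.8 CPM in nonOIR (log2 -0.30, edgeR adjusted p = 0.112). For the enzymes that couple ATG8 proteins to lipid and the ATG4 proteases, 0 of 11 passed (0 at an unadjusted p under 0.05, 0 by DESeq2; median -0.06). Atg7, the activating enzyme of this coupling, had 43.2 CPM in OIR and 34.6 CPM in nonOIR (log2 0.32, edgeR adjusted p = 0.218), and passed within lane 2 (0.75, adjusted p = 0.0165).

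For fusion with the lysosome 1 of 13 genes rose (7.69%, against 10.9% of all genes). By DESeq2 3 passed (with Vps33a and Snap29), against 1859 of the 12496 genes, and with lane as a term 2 passed (with Vps33a), against 17.3%. The median was 0.14, and 11 of 13 values were above 0, against 5806 of the 12496 over all genes. Rab7, a small GTPase of late endosomes and lysosomes, had 202 ± 16.7 CPM in OIR and 166 ± 15.1 CPM in nonOIR (SD, n = 8 each; log2 0.28, edgeR adjusted p = 0.0208). It did not pass within lane 1 (0.23, adjusted p = 0.229) or without a filter on low counts (0.0522), and 12.7% of its 50-base stretches also occur elsewhere, mostly in Rab7-ps1.

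Of 14 further cargo receptors and adaptors, 1 rose and 4 fell (35.7%, against 10.9% of all genes, 6.39% up and 4.56% down), with a median of -0.10. Retreg1, a receptor for endoplasmic reticulum, had 161, 194 and 235 CPM in OIR (lowest, median and highest) and 248, 286 and 325 CPM in nonOIR, without overlap. Its log2 fold change was -0.55 (SE 0.09, edgeR adjusted p = 0.000827), and within lane 1 it was -0.40 (adjusted p = 0.0531). Bnip3, a mitochondrial receptor known for its induction by hypoxia, moved the other way, with 17.2, 21.2 and 34.1 CPM in OIR and 8.86, 12.8 and 15.7 CPM in nonOIR, also without overlap. It rose 1.83-fold (log2 0.87, SE 0.17, edgeR adjusted p = 0.00289) and passed in both lanes, although 47.2% of its 50-base stretches occur in other annotated genes.

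Bnip3l, the close relative of Bnip3, was lower, with 72.6 ± 10.6 CPM in OIR and 93.4 ± 12.6 CPM in nonOIR (SD, n = 8 each; log2 -0.36, edgeR adjusted p = 0.0309). Its call held in 6 of 16 fits that left out 1 library (adjusted p 0.0139 to 0.0714), being lost without OIR replicate 1, 3, 4, 5, 7 or 8 or nonOIR replicate 5, 6, 7 or 8. Bnip3l passed in neither lane alone, nor with scaling by library totals (edgeR adjusted p = 0.121). Ccpg1, another receptor for endoplasmic reticulum, had 1.35 ± 0.332 CPM in OIR and 4.18 ± 2.39 CPM in nonOIR (log2 -1.63, edgeR adjusted p = 0.00910), did not pass within lane 1 (adjusted p = 0.248) and shares 53.6% of its 50-base stretches with Pigb and Gm44503. The fifth call was Sec62, a receptor that trims the endoplasmic reticulum after stress, named after its values were seen, with 117 ± 16.1 CPM in OIR and 147 ± 18.6 CPM in nonOIR (log2 -0.33, edgeR adjusted p = 0.0369). It held in 7 of 16 fits without 1 library (adjusted p 0.0236 to 0.0869), being lost without OIR replicate 5, 6, 7 or 8 or nonOIR replicate 1, 2, 3, 4 or 5. Sec62 did not pass within lane 1 (edgeR adjusted p = 0.0537), within lane 2 (0.0800) or with scaling by library totals (0.0580).

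Of 14 regulators and partners of the receptors none passed (0 at an unadjusted p under 0.05, 0 by DESeq2 and limma-voom; median -0.09). Nfe2l2, whose product is known to drive Sqstm1 transcription, had 274 ± 54.6 CPM in OIR and 329 ± 75.6 CPM in nonOIR (SD, n = 8 each, log2 -0.27, edgeR adjusted p = 0.270). Its part in the Sqstm1 difference was not tested.

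**Figure D5:**
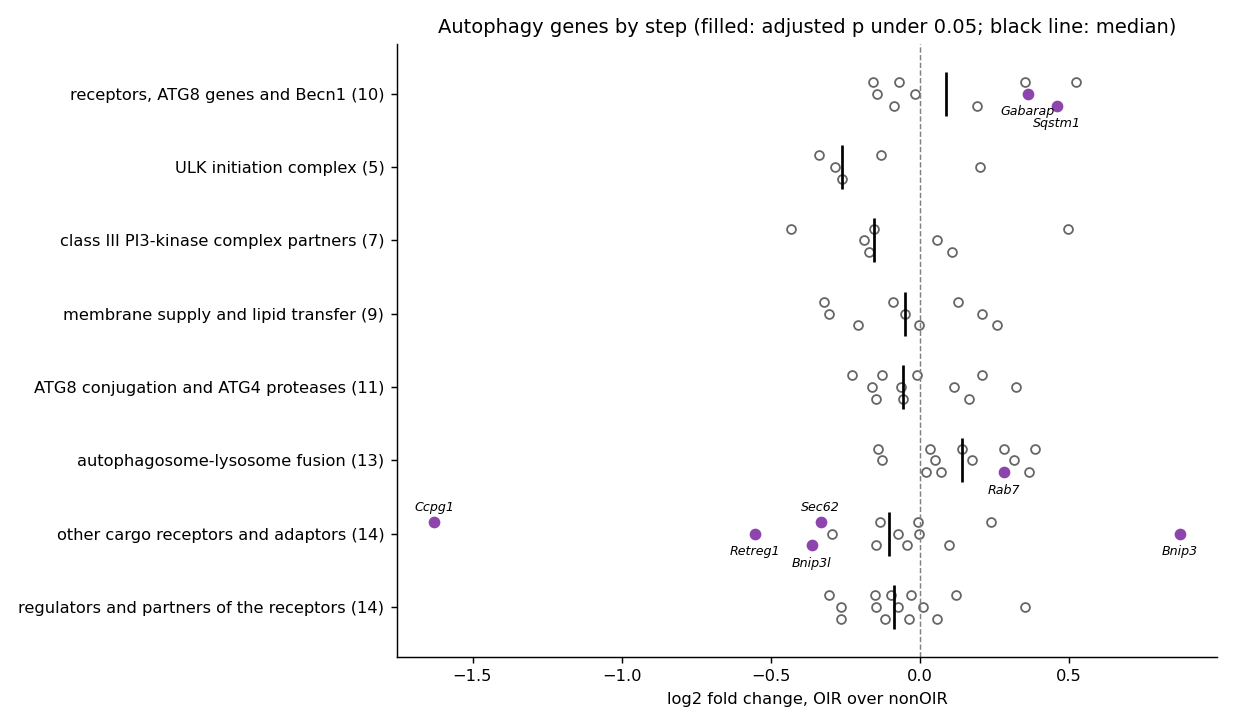
Log2 fold change of OIR over nonOIR (horizontal axis) of each gene in 8 lists, with the number of genes in brackets, filled where the edgeR adjusted p is under 0.05 and a black line at the median. Of the 10 receptor, ATG8 and Becn1 genes 2 are filled (Gabarap 0.36 and Sqstm1 0.46), and of 73 other genes 6 are, 4 of them to the left of 0.

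The 5 genes whose pattern over the 16 libraries was most like that of Sqstm1 were Cndp2, Ctsb, Ak1, Cat and C5ar1, out of 7806 candidates with a mean of at least 10 CPM. Likeness was the root mean square difference of log2(CPM + 1) values centred on each gene's mean, and ran from 0.12 for Cndp2 to 0.14 for C5ar1. Cndp2, a dipeptidase, had 297 ± 28.5 CPM in OIR and 206 ± 33.0 CPM in nonOIR, and Ctsb, a lysosomal protease, had 10780 ± 1108 CPM in OIR and 7436 ± 1076 CPM in nonOIR (SD, n = 8 each). In both, every OIR library was above every nonOIR library, and the log2 fold changes were 0.53 (edgeR adjusted p = 0.00209) and 0.54 (edgeR adjusted p = 0.00110). Cat, which encodes catalase, had 190.4 ± 24.3 CPM in OIR and 144 ± 16.1 CPM in nonOIR, C5ar1, a complement receptor, 619 ± 112 CPM in OIR and 469 ± 44.4 CPM in nonOIR, and Ak1, an adenylate kinase, 112 ± 12.0 CPM in OIR and 91.2 ± 10.6 CPM in nonOIR. Cat, C5ar1 and Ak1, like Sqstm1, did not pass within lane 1, and these genes were picked for their likeness, so their values describe the pattern only.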

How the data were processed

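Full-length cDNA of sorted cells was made from 750 pg of total RNA with 12 amplification cycles, and 150 pg were tagmented and read for 50 cycles, per the labels' protocols. The kit marks no strand, and no molecular identifiers were used, so reads are not separate molecules. Per the submitters' processing notes, which give no roles or order, the tools included featureCounts 1.6.2, STAR 2.6.0b-1, DESeq2 2.11.40.2 and FastQC 0.72, and the build was mm10. The authors' gene annotation is not given in the sources here. The table deposited by the authors holds whole read counts per gene and, per the file headers, a normalized signal per library, a base mean signal, a log2 fold change, a standard error and Wald score, and p-values with adjusted p-values. Tests here used the counts, and the authors' other columns were printed only where named.

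Low genes were removed by filterByExpr and libraries scaled by TMM. The two-sided test was glmQLFTest after a robust glmQLFit (edgeR 4.0.16, R 4.3.3), adjusted by Benjamini-Hochberg over 12496 genes. All edgeR adjusted p-values come from this quasi-likelihood test, with 8 libraries a group except within lanes. The standard error is the log2 fold change divided by the root of the F statistic. The biological coefficient of variation was 40.3%. Lane came from a code in the description label. Alternatives covered scaling, filters, lane, replicate number, limma 3.58.1 (voom), DESeq2 1.42.0 and the omission of each library. The scripts were tested on simulated data. Gene coordinates, exon lengths and shared 50-base stretches came from GENCODE M21 (mm10), and promoter windows from RefSeq (GRCm38.p6).

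The 10 genes and the lists were chosen with earlier results of these data known. The genes named beside the 10 were those with an adjusted p under 0.05 in each list, up to 4 with the lowest p, otherwise the gene with the lowest p, and the 5 genes most like Sqstm1. Beyond this rule, Vmp1, Vps33a and Snap29 were named because they passed in other fits, and Sec62 past the limit of 4. Values of 1 marker gene are not reported here and are left out of its list's sum.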

Additional observations from a re-analysis of the deposited data

Results flagged for a closer look

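Of 52 groups of 8 libraries examined, 1 held a library far from the others: Atg14 stood at 67.2 CPM in OIR replicate 1, while the next highest OIR library had 46.5 CPM. The gap made up 0.54 of the range of the OIR group, above the critical value of Dixon's test for 8 values, and chance alone passes that limit in about 1 in 20 groups. Without this library Atg14 passed the test (edgeR adjusted p = 0.00331), the only pass in 16 fits that left out 1 library (adjusted p up to 0.190). Leaving out the highest value of the lower group widens the difference by itself, so this fit is no separate evidence of a lower level.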

How the results depend on the processing

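Sqstm1 kept its call in 27 of 28 alternatives and lost it in the fit of lane 1 alone. When 1 library was left out in turn, its log2 fold change lay between 0.42 and 0.52 and its edgeR adjusted p between 0.00349 and 0.0193. Gabarap kept its direction in all 28 and its call in 14. Becn1 kept its direction in all 28 and passed in 8.

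The number of the 10 genes that changed was 1 with upper-quartile scaling, with no low-count filter, with limma-voom and in lane 1 alone, and 1 to 3 when 1 library was left out. The 1 gene was Sqstm1 except in lane 1, where it was Gabarap. The number of all genes changed was 2159 with lane as a covariate, 417 in lane 1 alone, and 926 to 1556 when 1 library was left out. With scaling by library totals 1 gene of the 10 differed between lanes (Sqstm1). Of all calls 58.3% were higher in OIR with TMM, 73.7% with library totals (1023 higher, 365 lower) and 51.1% with upper-quartile scaling (675 higher, 647 lower).

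Signs turned in lane 2 alone for Nbr1 (0.17) and Tax1bp1 (0.11), in lane 1 alone for Map1lc3b (0.081) and Gabarapl2 (0.014), with library totals for Map1lc3b (0.053), and when 1 library was left out for Map1lc3b (-0.046 to 0.035) and, also counting the fit without OIR replicate 1 and nonOIR replicate 8 together, Nbr1 (-0.21 to 0.027). The causes of these shifts were not tested, but fits of 1 lane hold fewer libraries.

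Replicate numbers showed no clear pairing of the samples, although this check cannot exclude one. Deviations of same-numbered libraries correlated between -0.02 and 0.20, and 2 of 8 libraries matched their own number best. The 2 of 8 pairs over 0.1, replicates 6 and 7, were in lane 2. With lane means removed they were at 0.057 and 0.064. With the replicate block 1679 genes and 3 of the 10 (Sqstm1, Gabarap and Becn1) changed. Optn had the lowest depth of the 10 genes, at 30 to 200 counts per library.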
